A study of Homo sapiens with 8 samples.

Results

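The KDM5 and KDM6 genes encode enzymes that take methyl groups off histone H3, and the 5 examined here are KDM5A, KDM5B, KDM5C, KDM6A and KDM6B. They were chosen by name, as the 2 targeted demethylases KDM5C and KDM6A, both on the X chromosome, and their paralogs on autosomes. They are 5 of the 60617 gene identifiers in the count table, and all 5 were among the 17527 genes that passed the filter on low counts. The question is whether the level of a paralog differed where KDM5C or KDM6A was targeted. The Y-linked homologs of KDM5C and KDM6A were not analysed here.

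KDM5 enzymes remove methyl groups from lysine H3K4, a mark of active promoters, and often act with histone deacetylases. KDM6 enzymes remove them from H3K27, the mark that Polycomb repressive complex PRC2 writes, and KDM6A is also a subunit of the KMT2C and KMT2D complexes, which methylate H3K4 at enhancers. Both families carry a JmjC domain that uses iron, oxygen and 2-oxoglutarate, and KDM5C and KDM6A are known for escaping X inactivation and for being mutated in tumors and in disorders of development.

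RNA of HEK293T cells, a transformed human embryonic kidney line, was sequenced in 8 libraries of 4 groups with 2 libraries each. Of the groups, 3 are knockout derivatives of the line, named sgKDM5C, sgKDM6A and sgKMT2B after the gene aimed at by a single guide RNA, and the last is the unedited line, WT. KMT2B is a methyltransferase of H3K4, so its activity is opposite to that of the KDM5 enzymes but not to that of the KDM6 enzymes. No treatment or time separates the groups. Whether a knockout is 1 clone or a mixed pool, how many guides were used, where they cut and what their sequences are is not given in these sources. The counts cover whole genes, and an edit that shifts the reading frame need not lower them, so a remaining level does not tell how much working protein was left.

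Library totals ran from 15868353 counts in WT replicate 2 to 27591724 in sgKDM6A replicate 2. Of 7 kidney epithelial markers, PAX2 ran at 7.77 to 17.4 CPM (counts scaled to a common library size) over the 8 libraries. KRT18 ran at 59.9 to 100 CPM, CDH1 at 2.66 to 15.9 and KRT8, with the widest range, at 5.15 to 265. EPCAM (0.357 to 3.35 CPM) and LHX1 (0 to 0.198 CPM) were low, and PAX8 had no count in 5 libraries. The summed level of the 7 kidney epithelial markers examined differed by group, at 161 to 163 CPM in sgKDM5C, 81.7 to 85.7 in sgKDM6A, 325 to 349 in sgKMT2B and 191 to 193 in WT, and its part in the results below was not tested. The sum of 4 fibroblast markers, nearly all of it COL1A1 (22.3 to 52.8 CPM), was 29.2 to 32.5 CPM in sgKDM5C, 22.4 to 24.4 in sgKDM6A, 40.5 to 47.9 in sgKMT2B and 52.8 to 53.9 in WT. The 5 blood markers summed to 2.69 to 6.96 CPM over the libraries, with CD3E and HBB at no count in any, and the 3 endothelial markers to 0.065 to 1.5 CPM. KMT2B itself averaged 69.3 ± 8.86 CPM in sgKMT2B libraries, against 141 ± 6.25 CPM in WT (SD, n = 2 each). Levels are CPM with library sizes scaled by TMM, and a gene is called at an adjusted p under 0.05 in edgeR's quasi-likelihood test with Benjamini-Hochberg adjustment over the 17527 genes. Adjusted p-values below come from that test unless another is named.

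The genes differ in how strongly the line expresses them. Averaged over the 8 libraries, KDM5C had 388 CPM, more than 98.09% of the tested genes. KDM5B had 144 CPM, KDM5A 80.0, KDM6B 66.2 and KDM6A 45.4, and KDM6A still exceeded 71.99% of the tested genes. In the GENCODE v29 annotation of GRCh38, KDM5C (ENSG00000126012) is on the minus strand of chromosome X at 53191321 to 53225422. KDM6A (ENSG00000147050) is on its plus strand at 44873177 to 45112602. The paralogs are KDM5A (ENSG00000073614) on the minus strand of chromosome 12 at 280129 to 389454, KDM5B (ENSG00000117139) on the minus strand of chromosome 1 at 202724495 to 202809470, and KDM6B (ENSG00000132510) on the plus strand of chromosome 17 at 7839904 to 7854796. KDM5A shares 182 exon bases with CCDC77 on the other strand, and the strand setting of the counting is not given, so reads of that stretch cannot be assigned to either gene.

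No paralog was called higher in either demethylase knockout. KDM5A and KDM5B did not pass the test in sgKDM5C, and KDM6B, the paralog of KDM6A, fell in sgKDM6A together with KDM6A itself. Over the 15 combinations of a gene and a knockout against WT, 6 were called lower and 0 higher, by edgeR and by DESeq2 alike, and 2 of the 6 are the targeted genes in their own knockouts. Of all tested genes, 11.5% were called lower in sgKDM5C, 14.6% in sgKDM6A and 14.5% in sgKMT2B. Counting p-values before adjustment under 0.05 would add 1 on the higher side, KDM5B in sgKMT2B.

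**Figure D1:**
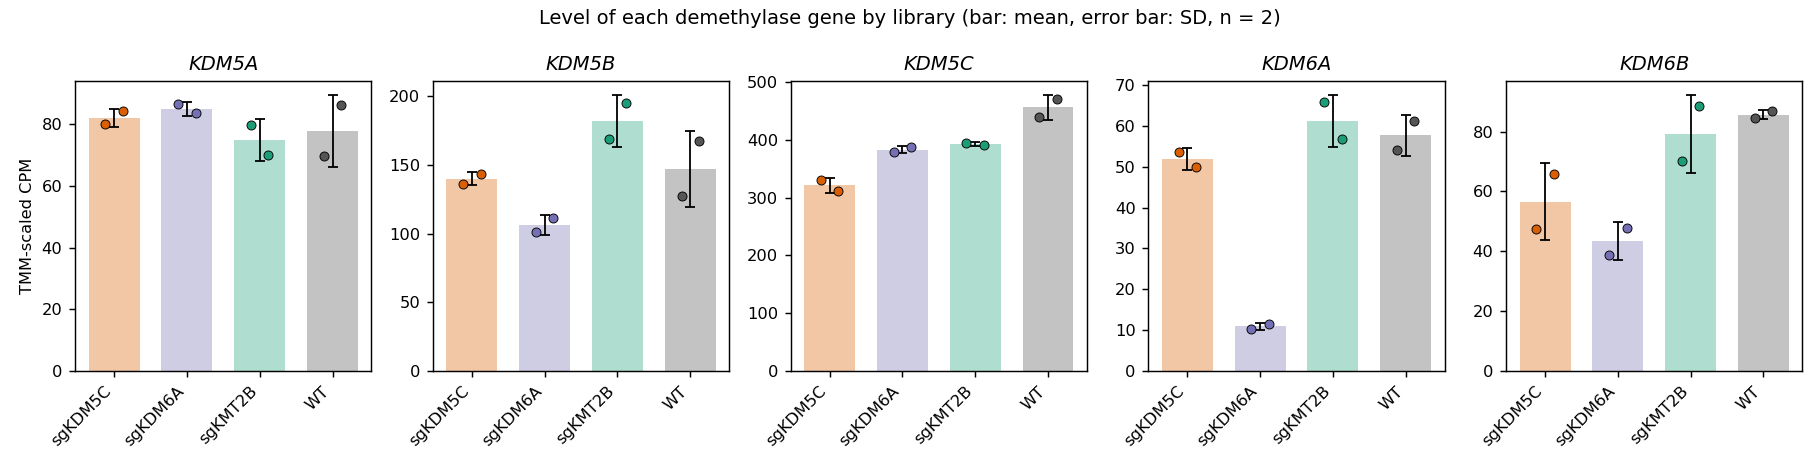
TMM-scaled CPM of the 5 genes in each library (points), with the mean (bar) and SD (error bar) of the 2 libraries of sgKDM5C, sgKDM6A, sgKMT2B and WT; each panel has its own axis, which starts at 0. KDM6A stands at 10.3 and 11.5 CPM in sgKDM6A, KDM5C is lowest in sgKDM5C, and KDM6B is lowest in sgKDM6A.

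In sgKDM5C, the targeted gene KDM5C had 331 and 312 CPM, against 440 and 471 CPM in WT. The groups did not overlap, and KDM5C was lowest in sgKDM5C among the 4 groups. Here and below, an exact permutation test of 2 against 2 libraries without overlap cannot go below p = 0.333. KDM5C fell by 0.50 on the log2 scale (SE 0.08, 95% interval -0.68 to -0.33, adjusted p = 0.00109), to 0.705 of the WT level. The call held under each of the 16 alternatives run, with log2 changes of -0.55 to -0.47. Most KDM5C RNA was therefore still counted in this knockout.

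The KDM5 paralogs in sgKDM5C showed no change that the test could call. KDM5A, first described as a binding partner of the retinoblastoma protein, had 80.0 and 84.2 CPM in sgKDM5C, against 69.7 and 86.2 CPM in WT. The sgKDM5C libraries lay between the WT libraries, and the log2 change was 0.08 (SE 0.12, adjusted p = 0.674), with a 95% interval of 0.886-fold to 1.26-fold. KDM5B, a demethylase often highly expressed in breast tumors, had 136 and 143 CPM in sgKDM5C, against 127 and 167 CPM in WT. These libraries also lay between those of WT, and the log2 change was -0.07 (SE 0.12, adjusted p = 0.715), with a 95% interval of 0.790-fold to 1.14-fold. With 2 libraries a group, a rise of KDM5A above 1.26-fold or of KDM5B above 1.14-fold lay outside those intervals. Smaller rises lay inside them. The sign of both log2 changes depended on the WT library used. Without WT replicate 1, KDM5A was at -0.07, and without WT replicate 2, KDM5B was at 0.12.

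Of the 5 genes, 2 were called lower in sgKDM5C, KDM5C and KDM6B, beside 22.6% of all tested genes called in this comparison, 11.1% higher and 11.5% lower. KDM6B had 47.6 and 65.7 CPM in sgKDM5C, against 84.5 and 86.8 CPM in WT. Both sgKDM5C libraries were below both WT libraries but stood apart from each other. The log2 change was -0.60 (SE 0.16, adjusted p = 0.016). That call was lost without sgKDM5C replicate 1, where the change was -0.38 (adjusted p = 0.162), and without WT replicate 2, where it was -0.59 (adjusted p = 0.0529). KDM6A had 53.7 and 50.0 CPM in sgKDM5C, against 54.2 and 61.2 CPM in WT, with no overlap. It did not pass the test (log2 change -0.15, SE 0.12, adjusted p = 0.399).

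In sgKDM6A, the targeted gene KDM6A had 10.3 and 11.5 CPM, against 54.2 and 61.2 CPM in WT. Those levels rest on 261 and 323 counts in sgKDM6A and on 1312 and 941 counts in WT. The groups stood far apart, and KDM6A fell by 2.39 on the log2 scale (SE 0.13, 95% interval -2.68 to -2.11, adjusted p = 9.38e-08), to 0.19 of the WT level. Under the 16 alternatives its change stayed between -2.48 and -2.31. In bulk RNA, fewer cells with the transcript and less of it in each cell cannot be told apart.

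KDM6B, which is known to be induced by inflammatory and differentiation signals, fell with it. KDM6B had 38.8 and 47.7 CPM in sgKDM6A, from 978 and 1336 counts, against 84.5 and 86.8 CPM in WT, from 2046 and 1336 counts. The equal counts of sgKDM6A replicate 2 and WT replicate 2 come from libraries of different depth, and after scaling both sgKDM6A libraries lay well below both WT libraries. The log2 change was -0.98 (SE 0.16, 95% interval -1.33 to -0.64, adjusted p = 0.00068), to 0.505 of the WT level. It was called under each of the 16 alternatives, from -1.14 to -0.84, with adjusted p-values of at most 0.0106. The summed fibroblast markers given above had the same order of groups as KDM6B, with WT highest and sgKDM6A lowest, and their part in this result was not tested.

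Control shared by the KDM6 pair was not tested, and the sequences upstream of both genes are given as a description. They are from RefSeq on GRCh38.p14, both on the plus strand, and end at the base before the annotated start or, for KDM6A, before the first GENCODE v29 exon. All 5 genes matched an entry, and those of the KDM5 genes are not shown because they lie mostly in annotated exons. KDM6A is chrX:44872938-44873176 and KDM6B is chr17:7833967-7834216, with CpG pairs in capitals.
KDM6A: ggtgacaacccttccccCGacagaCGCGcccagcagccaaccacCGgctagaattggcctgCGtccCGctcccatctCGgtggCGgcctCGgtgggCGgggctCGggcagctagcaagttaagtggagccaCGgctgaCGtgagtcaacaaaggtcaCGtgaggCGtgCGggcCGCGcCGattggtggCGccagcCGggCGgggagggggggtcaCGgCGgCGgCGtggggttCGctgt
KDM6B: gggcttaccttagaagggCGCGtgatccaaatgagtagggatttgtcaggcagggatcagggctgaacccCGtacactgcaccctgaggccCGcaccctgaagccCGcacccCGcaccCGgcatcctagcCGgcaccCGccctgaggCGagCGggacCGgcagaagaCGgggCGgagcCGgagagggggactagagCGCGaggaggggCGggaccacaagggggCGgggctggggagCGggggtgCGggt
Over the full 250 bases upstream, KDM6A has 27 CpG pairs, a number reached by 17.3% of 27305 upstream windows in RefSeq, and KDM6B has 21, reached by 29.8%. Matches to 4 motifs were counted on both strands, none of which contains another. The KDM6A window holds 1 E-box (CACGTG), 1 AP-1 motif (TGACTCA), 2 CCAAT boxes (CCAAT) and 2 GC boxes (GGGCGG). The KDM6B window holds 4 GC boxes and no match to the others. Of the 27305 windows, 6.49% hold CACGTG, 4.16% TGACTCA, 33% CCAAT and 42.3% GGGCGG. A match describes letters and not binding. The RefSeq start of KDM6B lies 5687 bases before the GENCODE v29 start of the gene.

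KDM5B and KDM5C were also called lower in sgKDM6A, while KDM5A was not called. Of the 5 genes, 4 were called lower in sgKDM6A and 0 higher, beside 27.2% of all tested genes called, 12.6% higher and 14.6% lower. KDM5B had 101 and 111 CPM in sgKDM6A, against 127 and 167 CPM in WT, with no overlap. Its log2 change was -0.47 (SE 0.12, adjusted p = 0.0141). That call was lost without WT replicate 2, where the change was -0.26 (adjusted p = 0.132), and without sgKDM6A replicate 1, where it was -0.40 (adjusted p = 0.114).

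KDM5C had 379 and 387 CPM in sgKDM6A, against 440 and 471 CPM in WT. The groups did not overlap, and the log2 change of -0.25 (SE 0.08) passed the test narrowly, with an adjusted p of 0.0359. It was lost in 8 of the 16 alternatives. Without WT replicate 2 it was -0.20 (adjusted p = 0.114), without sgKDM6A replicate 1 it was -0.23 (0.192), without sgKDM6A replicate 2 it was -0.26 (0.127). It stayed at -0.25 without sgKDM5C replicate 1 (0.0527), sgKMT2B replicate 1 (0.0655) or sgKMT2B replicate 2 (0.0674). KDM5A had 86.7 and 83.6 CPM in sgKDM6A, against 69.7 and 86.2 CPM in WT, and did not pass the test (log2 change 0.13, SE 0.12, adjusted p = 0.439). Its 95% interval was 0.919-fold to 1.3-fold, and without WT replicate 1 its log2 change was -0.01.

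**Figure D2:**
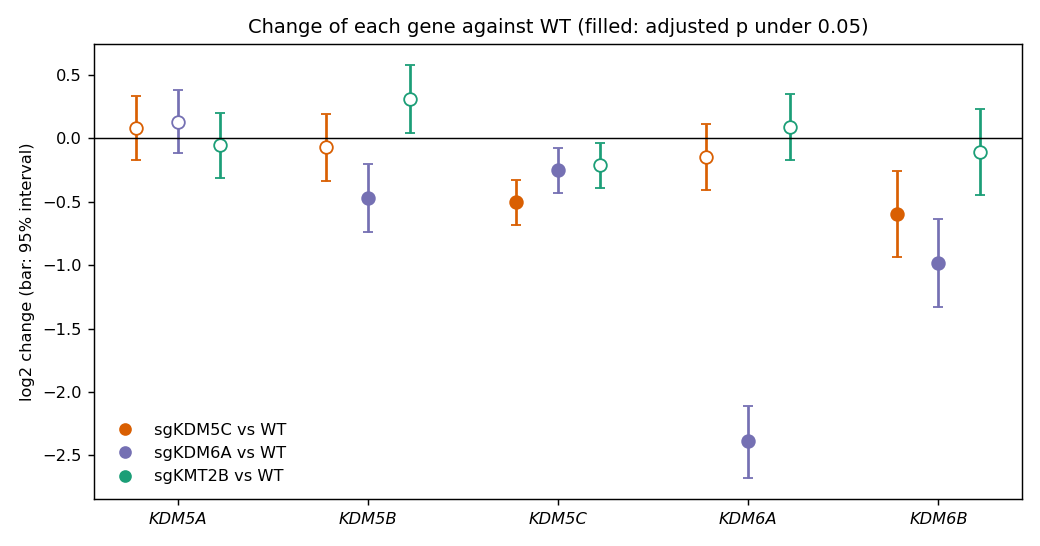
Log2 change of each gene against WT in sgKDM5C, sgKDM6A and sgKMT2B from the edgeR fit, with 95% intervals; filled points have an adjusted p under 0.05, and the horizontal line marks no change. The filled points all lie below the line, from -0.25 for KDM5C in sgKDM6A to -2.39 for KDM6A in sgKDM6A.

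In sgKMT2B, the knockout that targets none of the 5, 0 of the 5 were called by edgeR and 0 by DESeq2, beside 28.1% of all tested genes called, 13.7% higher and 14.5% lower. At an unadjusted p under 0.05 there were 2, KDM5B and KDM5C. KDM5B had 169 and 195 CPM in sgKMT2B, against 127 and 167 CPM in WT. The lower sgKMT2B library stood just above the higher WT library, and the log2 change was 0.31 (SE 0.12, 95% interval 0.04 to 0.58, adjusted p = 0.078). KDM5B passed without WT replicate 2, where the change was 0.52 (adjusted p = 0.00796), and with the replicate number as a block, where it was 0.32 (adjusted p = 0.02). KDM5C had 395 and 390 CPM in sgKMT2B, against 440 and 471 CPM in WT, with a log2 change of -0.21 (SE 0.08, adjusted p = 0.0667). It passed without WT replicate 1, where the change was -0.26 (adjusted p = 0.0379).

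The other genes overlapped between sgKMT2B and WT. KDM5A had 79.8 and 70.1 CPM in sgKMT2B, against 69.7 and 86.2 CPM in WT (log2 change -0.05, adjusted p = 0.77). KDM6A had 65.8 and 56.8 CPM in sgKMT2B, against 54.2 and 61.2 CPM in WT (log2 change 0.09, adjusted p = 0.624). KDM6B had 70.1 and 88.5 CPM in sgKMT2B, against 84.5 and 86.8 CPM in WT (log2 change -0.11, adjusted p = 0.638). Each of these changed sign when 1 library was left out.

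The 3 knockouts were compared with the same 2 WT libraries, so their changes are not independent of each other. Outside the gene's own knockout there were 13 combinations, of which 4 were called, all lower: KDM6B in sgKDM5C, and KDM5B, KDM5C and KDM6B in sgKDM6A. Since 22.6%, 27.2% and 28.1% of all tested genes were called in the 3 comparisons, that many calls is near the background and is no result about these genes as a group. KDM5A was called in no knockout.

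Comparisons between knockouts do not use the WT libraries as a group. Between sgKDM6A and sgKMT2B, 3 of the 5 genes were called, beside 24.9% of all tested genes. KDM6A averaged 10.9 ± 0.845 CPM in sgKDM6A and 61.3 ± 6.34 CPM in sgKMT2B (SD, n = 2 each; log2 change -2.48, adjusted p = 2.9e-08). KDM6B averaged 43.3 ± 6.34 CPM in sgKDM6A and 79.3 ± 13.0 CPM in sgKMT2B, a log2 change of -0.87 (adjusted p = 0.00116). KDM5B averaged 106 ± 7.35 CPM in sgKDM6A and 182 ± 18.9 CPM in sgKMT2B, a log2 change of -0.78 (adjusted p = 0.000462). These calls of KDM5B and KDM6B held under each of the 16 alternatives, so that both stood lower in sgKDM6A than in sgKMT2B whichever library was left out. KDM5C, at 383 ± 5.54 CPM in sgKDM6A and 393 ± 3.7 CPM in sgKMT2B, did not pass (adjusted p = 0.788).

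Between sgKDM5C and sgKDM6A, 3 genes were called, beside 19.8% of all tested genes. KDM6A averaged 51.9 ± 2.64 CPM in sgKDM5C and 10.9 ± 0.845 CPM in sgKDM6A (SD, n = 2 each; log2 change 2.24, adjusted p = 1.29e-07). KDM5C averaged 321 ± 13.4 CPM in sgKDM5C and 383 ± 5.54 CPM in sgKDM6A, a log2 change of -0.25 (adjusted p = 0.0456). KDM5B averaged 140 ± 4.92 CPM in sgKDM5C and 106 ± 7.35 CPM in sgKDM6A, a log2 change of 0.39 (adjusted p = 0.0394). These last calls are fragile: KDM5C was lost without any 1 library of the 3 knockouts (adjusted p = 0.0624 to 0.254), and KDM5B likewise except without sgKMT2B replicate 2 (0.0546 to 0.228). With all libraries kept, KDM5C was also lost with upper-quartile factors (adjusted p = 0.0681), no filter (0.0569) and thinning to the smallest library (0.0542). KDM5B was lost with that thinning (0.0718). KDM6B, at 56.6 ± 12.8 CPM in sgKDM5C and 43.3 ± 6.34 CPM in sgKDM6A, did not pass (log2 change 0.39, adjusted p = 0.107), so a difference in KDM6B between the 2 demethylase knockouts was not shown. With no filter KDM6B passed (0.38, adjusted p = 0.0216). It passed without sgKDM5C replicate 1 (log2 change 0.60, adjusted p = 0.0263) and with the replicate number as a block (0.38, adjusted p = 0.0261).

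Between sgKDM5C and sgKMT2B, 3 genes were called lower in sgKDM5C, beside 22.1% of all tested genes called in either direction. They were KDM5C (log2 change -0.29, adjusted p = 0.0214), KDM5B (-0.38, adjusted p = 0.0401) and KDM6B (-0.49, adjusted p = 0.0404). Each was lost without some library. KDM5C was lost without any 1 of the 4 libraries compared (adjusted p = 0.0549 to 0.146), and KDM5B without either sgKDM5C library or sgKMT2B replicate 2 (0.0913 to 0.282). KDM6B was lost without sgKDM5C replicate 1, where the change was -0.28 (0.309), or sgKMT2B replicate 2, where it was -0.31 (0.322), and was -0.75 without sgKDM5C replicate 2. Upper-quartile factors also lost KDM5B (adjusted p = 0.0765) and KDM6B (0.0734), and thinning to the smallest library lost KDM6B (0.0514). Over the 3 pairs of knockouts, 9 of 15 combinations were called. Of all tested genes, 19.8% were called between sgKDM5C and sgKDM6A, 22.1% between sgKDM5C and sgKMT2B, and 24.9% between sgKDM6A and sgKMT2B. The 9 include KDM5C and KDM6A in each pair that holds their own knockout.

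By mean level from high to low, KDM5C stood in the order WT, sgKMT2B, sgKDM6A, sgKDM5C, and KDM6B in the order WT, sgKMT2B, sgKDM5C, sgKDM6A. KDM5B and KDM6A shared the order sgKMT2B, WT, sgKDM5C, sgKDM6A. Of the steps between neighbours in these orders, those called were sgKDM5C to sgKDM6A for KDM6A and KDM5B, sgKMT2B to sgKDM5C for KDM6B, and sgKDM6A to sgKDM5C for KDM5C. KDM5A stood in the order sgKDM6A, sgKDM5C, WT, sgKMT2B, with no step called.

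To add genes of unequal length, levels were divided by the merged exon length of each gene, 12091 bases for KDM5A, 25882 for KDM5B, 8727 for KDM5C, 7139 for KDM6A and 7258 for KDM6B. The KDM5 sum was 49.8 and 48.2 CPM per kb in sgKDM5C, 54.5 and 55.5 in sgKDM6A, 58.4 and 58.1 in sgKMT2B, and 61.2 and 67.5 in WT. All 6 knockout libraries were below both WT libraries, and the sgKDM5C libraries were lowest. KDM5C made up most of this sum in every library, 76.1% and 74.1% in sgKDM5C, 79.7% and 79.8% in sgKDM6A, 77.5% and 77.0% in sgKMT2B, and 82.5% and 79.9% in WT. The KDM5 demethylase transcripts of this line are thus largely those of KDM5C, also where it was targeted.

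The KDM6 sum was 14.1 and 16.1 CPM per kb in sgKDM5C, 6.79 and 8.19 in sgKDM6A, 18.9 and 20.2 in sgKMT2B, and 19.2 and 20.5 in WT. Here the sgKDM6A libraries stood well below all others, and those of sgKMT2B overlapped WT. KDM6B held 78.7% and 80.3% of the sum in sgKDM6A, against 60.5% and 58.3% in WT, although its own level was lower in sgKDM6A. In sgKDM5C it held 46.5% and 56.4%, and in sgKMT2B 51.2% and 60.5%. No test was run on these sums, and an exact permutation test of 2 against 2 libraries cannot go below p = 0.333. With the longest annotated transcript as the length, 10341 bases for KDM5B, KDM5C stayed the largest part of the KDM5 sum. KDM5B then held 17.6% and 19.0% of it in sgKDM5C, against 13.5% and 15.9% in WT. Its own level was not higher, at 13.2 and 13.8 CPM per kb in sgKDM5C, between the 12.3 and 16.1 of WT.

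**Figure D3:**
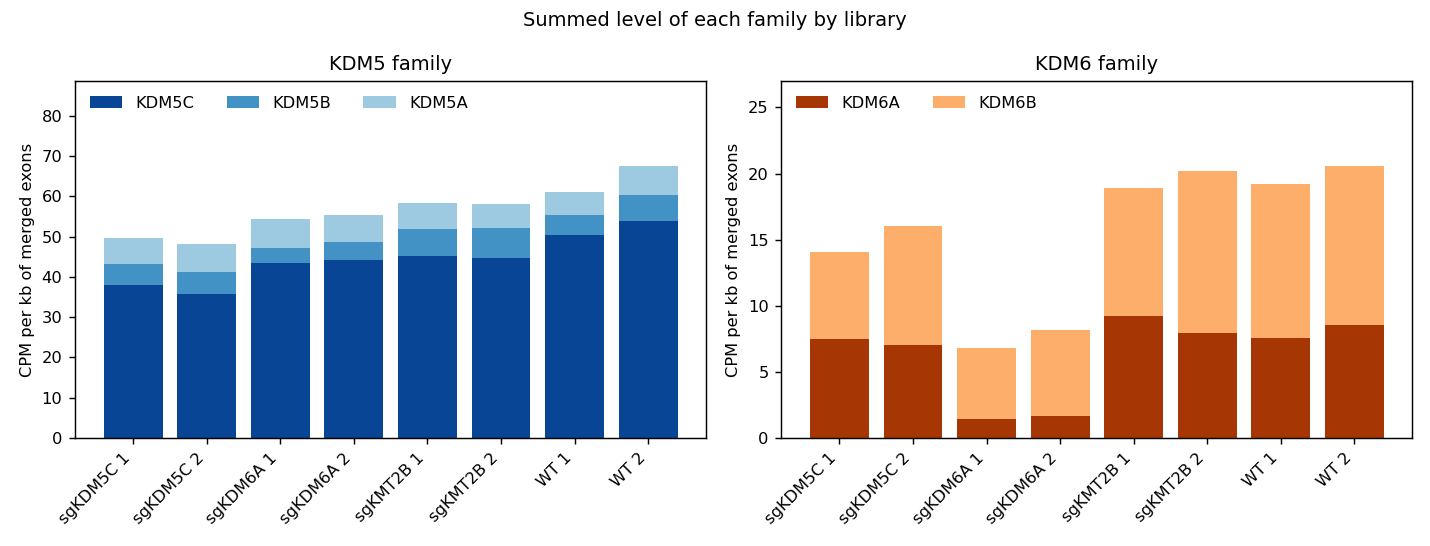
Level per kb of merged exons (CPM per kb) of KDM5A, KDM5B and KDM5C, stacked on the left, and of KDM6A and KDM6B, stacked on the right, in each library of sgKDM5C, sgKDM6A, sgKMT2B and WT. KDM5C fills most of each KDM5 bar, and the sgKDM6A bars of the KDM6 panel end at 6.79 and 8.19.

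Genes beside each member were examined to see whether a whole stretch of chromosome moved. Of all tested genes, 11.5% were called lower and 11.1% higher in sgKDM5C, and 14.6% lower and 12.6% higher in sgKDM6A. The counts of called neighbours below stand beside these shares. Around KDM6B, the 10 nearest tested genes, from 7646627 to 7916276 on chromosome 17, had a median log2 change of -0.15 in sgKDM6A, and the range was -1.48 to 0.63. Of these, 3 were called lower and 0 higher, and the median over the 675 genes of the chromosome above 5 CPM was -0.06. KDM6B, at -0.98, lay below most of its neighbours but not all. ATP1B2, a subunit of the sodium pump, fell by 1.48 in sgKDM6A (adjusted p = 0.000148), by 0.78 in sgKDM5C (adjusted p = 0.0106) and 0.81 in sgKMT2B (adjusted p = 0.00682). Leaving out sgKDM5C replicate 1 ended the sgKDM5C call (-0.59, adjusted p = 0.103), and leaving out sgKMT2B replicate 1 ended that of sgKMT2B (-0.63, 0.0926). CHD3, a chromatin remodeler, fell by 0.35 in sgKDM6A (adjusted p = 0.0166), a call lost when WT replicate 2 (-0.22, 0.107), sgKDM6A replicate 1 (-0.33, 0.107) or sgKDM6A replicate 2 (-0.36, 0.0675) was left out. In sgKDM5C the neighbours of KDM6B had a median of 0.0, with 1 called lower.

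Around KDM6A, the 10 neighbours had a median log2 change of -0.18 in sgKDM6A, with 2 called lower and 1 higher, and the median of 395 genes on the X chromosome was -0.02. KDM6A, at -2.39, was below all of them except MIR222HG, the host transcript of a microRNA pair, which had 23 and 31 counts in sgKDM6A, against 174 and 197 counts in WT (log2 change -3.28, adjusted p = 1.7e-05). MIR222HG also fell in sgKDM5C (log2 change -1.80, adjusted p = 0.000994). PINCR, a long noncoding RNA, had 54 and 44 counts in sgKMT2B, against 4 and 5 counts in WT (log2 change 3.04, adjusted p = 0.00283). Around KDM5C, the median was -0.03 in sgKDM5C, with 1 called lower, and -0.31 in sgKDM6A, with 2 called lower and 1 higher. HSD17B10, a mitochondrial dehydrogenase, rose by 0.87 in sgKDM6A (adjusted p = 4.2e-05), and IQSEC2, an exchange factor of synapses, fell by 0.68 there (adjusted p = 0.00295). IQSEC2 also fell by 0.46 in sgKMT2B (adjusted p = 0.0235), a call lost when WT replicate 2 (-0.32, 0.159), sgKMT2B replicate 1 (-0.40, 0.172) or sgKMT2B replicate 2 (-0.51, 0.0683) was left out.

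Around KDM5B, the median in sgKDM6A was -0.28, with 3 called lower and 1 higher, while that of 1151 genes on chromosome 1 was -0.02. PCAT6, a noncoding RNA next to it, fell by 1.72 in sgKDM6A (adjusted p = 0.000808), and KLHL12, an adaptor of a ubiquitin ligase, rose by 0.65 in sgKMT2B (adjusted p = 0.00053). KDM5A lies near the end of chromosome 12 and had 9 neighbours. Beside 11.1% of all tested genes called higher and 11.5% lower in sgKDM5C, 4 of these neighbours were called higher and 0 lower. They include NINJ2, an adhesion protein, with 34 and 22 counts in sgKDM5C, against 1 and 0 counts in WT, a ratio of 41.1 per scaled library with a 95% counting interval of 7.09 to 1650. NINJ2 also passed narrowly in sgKMT2B (adjusted p = 0.0499), a call kept under 2 of 14 alternatives. ENSG00000261799 rose by 1.24 in sgKDM5C (adjusted p = 0.0121), 1.35 in sgKDM6A (adjusted p = 0.00616) and 1.07 in sgKMT2B (adjusted p = 0.0209). The sgKDM5C call was lost when WT replicate 2 was left out (1.22, 0.051), and the sgKMT2B call when WT replicate 1 (1.08, 0.0707), WT replicate 2 (1.06, 0.0709) or sgKMT2B replicate 1 (0.74, 0.2) was left out. KDM5A itself was not called in any knockout.

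**Figure D4:**
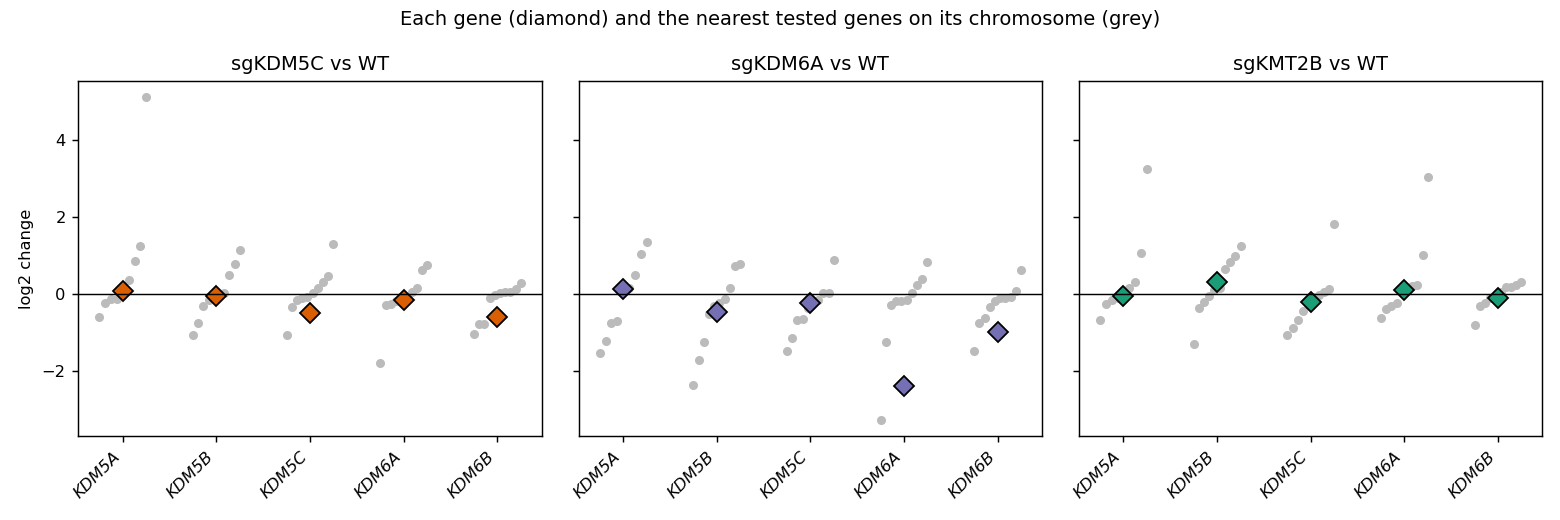
Log2 change against WT in sgKDM5C, sgKDM6A and sgKMT2B of each demethylase gene (diamond) and of its nearest tested genes on the same chromosome (grey points, up to 5 on each side, ordered by value). In sgKDM6A, KDM6A at -2.39 and KDM6B at -0.98 lie toward the low end of their neighbours, while KDM5A lies among its own.

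Genes that work with these enzymes were counted from lists of their complexes and opponents. Over all tested genes the median log2 change was 0.02 in sgKDM5C, 0.01 in sgKDM6A and 0 in sgKMT2B. The shares of all tested genes called higher and lower were 11.1% and 11.5% in sgKDM5C and 12.6% and 14.6% in sgKDM6A. In sgKMT2B they were 13.7% and 14.5%, and the counts of each list below stand beside these shares. Among 17 tested histone demethylases of other families, 3 rose and 3 fell in sgKDM5C, 4 rose and 0 fell in sgKDM6A, and 4 rose and 3 fell in sgKMT2B, with medians of -0.1, -0.02 and 0.03. KDM4D, which demethylates H3K9, rose in each knockout, by 0.93, 1.13 and 1.2 on the log2 scale in sgKDM5C, sgKDM6A and sgKMT2B (adjusted p = 0.00461, 0.001 and 0.000566). It was a low gene, at 7.7 ± 0.081 CPM in sgKDM5C, 8.8 ± 0.842 in sgKDM6A, 9.25 ± 0.0721 in sgKMT2B and 4.05 ± 0.346 in WT. KDM1B, which acts on H3K4 like the KDM5 enzymes, averaged 31.7 ± 3.01 CPM in sgKDM5C and 51.0 ± 2.02 CPM in WT (log2 change -0.68, adjusted p = 0.00192). KDM4C fell by 0.62 in sgKDM5C (adjusted p = 0.0115) and by 0.84 in sgKMT2B (adjusted p = 0.00145). Its call in sgKDM5C was lost without WT replicate 2 (-0.50, adjusted p = 0.071) and without sgKDM5C replicate 1 (-0.55, adjusted p = 0.0909). RIOX2, a JmjC protein of the nucleolus, rose by 0.91 in sgKMT2B (adjusted p = 0.000627).

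The partners of KDM5 proteins include histone deacetylases and readers of chromatin. Of 11 tested, 2 rose and 1 fell in sgKDM5C, 2 rose and 1 fell in sgKDM6A, and 3 rose and 1 fell in sgKMT2B, with medians of 0.09, 0.07 and 0.15. HDAC1, a histone deacetylase, averaged 597 ± 49.6 CPM in sgKDM5C, 571 ± 19.6 in sgKDM6A, 532 ± 10.9 in sgKMT2B and 402 ± 21.9 in WT. It rose in each, by 0.57, 0.51 and 0.40 (adjusted p = 0.000748, 0.00102 and 0.00396). GATAD1, a protein found with KDM5A at promoters, fell in each, by 0.72, 0.66 and 0.44 in sgKDM5C, sgKDM6A and sgKMT2B (adjusted p = 0.000827, 0.000955 and 0.0105). The fall in sgKMT2B missed the threshold on leaving out WT replicate 2 (-0.36, adjusted p = 0.0574) or sgKMT2B replicate 1 (-0.36, adjusted p = 0.129). ZMYND8, a chromatin reader reported to work with KDM5C, averaged 56.6 ± 2.05 CPM in sgKDM5C and 29.3 ± 2.46 CPM in WT (log2 change 0.95, adjusted p = 0.000181), and rose by 0.69 in sgKMT2B. HDAC2, the paralog of HDAC1, rose by 0.54 in sgKMT2B (adjusted p = 0.00307), and by 0.35 there when WT replicate 2 was left out. It rose by 0.39 in sgKDM6A (adjusted p = 0.019) and by 0.61 without WT replicate 1, a call lost without WT replicate 2 (0.21, adjusted p = 0.113), sgKDM6A replicate 1 (0.38, 0.0928) or sgKDM6A replicate 2 (0.41, 0.0617).

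The KMT2C and KMT2D complexes hold KDM6A as a subunit. Of 9 other subunits, 1 rose and 2 fell in sgKDM5C, 2 rose and 0 fell in sgKDM6A, and 3 rose and 0 fell in sgKMT2B, with medians of -0.04, 0.11 and 0.24. KMT2C averaged 53.3 ± 7.37 CPM in sgKDM5C, 54.6 ± 2.45 in sgKDM6A, 53.0 ± 0.804 in sgKMT2B and 38.4 ± 0.854 in WT, and rose in each, by 0.47, 0.51 and 0.46 (adjusted p = 0.0127, 0.00697 and 0.011). In sgKDM5C it did not pass on leaving out WT replicate 2 (0.43, adjusted p = 0.0545) or sgKDM5C replicate 2 (0.31, 0.152), nor in sgKMT2B on leaving out sgKMT2B replicate 1 (0.48, 0.0603) or 2 (0.45, 0.0629). WDR5, a scaffold shared by all complexes of this kind, averaged 232 ± 6.85 CPM in sgKDM6A and 136 ± 12.2 CPM in WT (log2 change 0.76, adjusted p = 0.000165). NCOA6 rose by 0.50 in sgKMT2B (adjusted p = 0.00268). PAXIP1 fell by 0.47 in sgKDM5C (adjusted p = 0.0203), a call lost without WT replicate 2 (-0.31, 0.131) or sgKDM5C replicate 1 (-0.37, 0.166).

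Of all 13 H3K4 methyltransferases and core subunits, which include some of those 9, 2 rose and 2 fell in sgKDM5C, 5 rose and 1 fell in sgKDM6A, and 4 rose and 1 fell in sgKMT2B, with medians of 0.03, 0.11 and 0.21. SETD1B, a methyltransferase, rose by 0.68 in sgKDM6A (adjusted p = 0.00286) and 0.83 in sgKMT2B (adjusted p = 0.000698). Its rise of 0.43 in sgKDM5C (adjusted p = 0.0369) was lost without WT replicate 2 (0.34, 0.174), sgKDM5C replicate 1 (0.28, 0.306), sgKMT2B replicate 1 (0.42, 0.0603) or sgKMT2B replicate 2 (0.43, 0.0561). CXXC1, its CpG-binding partner, rose by 0.62 in sgKDM6A (adjusted p = 0.00423), and not without sgKDM6A replicate 1 (0.47, 0.0605).

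PRC2 writes the mark that the KDM6 enzymes erase. Of 11 tested subunits, 1 rose and 2 fell in sgKDM5C, 0 rose and 1 fell in sgKDM6A, and 2 rose and 0 fell in sgKMT2B, with medians of 0.09, -0.04 and -0.1. The subunit that fell in sgKDM6A was RBBP7, a histone-binding protein also found in deacetylase complexes, with 228 ± 10.8 CPM in sgKDM6A and 414 ± 25.7 CPM in WT (log2 change -0.86, adjusted p = 1.72e-05). Its fall of 0.28 in sgKDM5C (adjusted p = 0.0273) was lost without WT replicate 2 (-0.23, 0.0844), sgKDM5C replicate 1 (-0.29, 0.121), sgKDM5C replicate 2 (-0.29, 0.106) or sgKMT2B replicate 2 (-0.28, 0.051). MTF2 rose by 0.50 in sgKDM5C (adjusted p = 0.00624), though not without sgKDM5C replicate 2 (0.44, 0.052), and by 0.62 in sgKMT2B (adjusted p = 0.00116). SUZ12, a core subunit, rose by 0.65 in sgKMT2B (adjusted p = 0.00468), and by 0.43 when WT replicate 2 was left out. EZH1, a catalytic subunit, fell by 0.52 in sgKDM5C (adjusted p = 0.0294), and not without WT replicate 2 (-0.43, 0.139) or sgKDM5C replicate 1 (-0.39, 0.212).

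JmjC enzymes need 2-oxoglutarate, and of 9 tested genes that make or remove it or its reduced form, 0 rose and 2 fell in sgKDM5C, 0 rose and 2 fell in sgKDM6A, and 1 rose and 3 fell in sgKMT2B, with medians of -0.16, -0.12 and -0.21. IDH2, the mitochondrial enzyme that makes it from isocitrate, averaged 97.3 ± 13.0 CPM in sgKDM5C, 92.6 ± 6.73 in sgKDM6A, 145 ± 7.92 in sgKMT2B and 175 ± 1.91 in WT. It fell by 0.85 in sgKDM5C (adjusted p = 0.000217) and by 0.92 in sgKDM6A (adjusted p = 6.38e-05), while its change of -0.27 in sgKMT2B did not pass (adjusted p = 0.0719). IDH1, its cytosolic counterpart, rose by 0.71 in sgKMT2B (adjusted p = 0.000464). DLST, a subunit of the complex that consumes 2-oxoglutarate, fell by 0.52 there (adjusted p = 0.000933).

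The genes whose pattern over the 8 libraries was most like each member were found among 10692 protein-coding genes with at least 5 CPM, by the root-mean-square difference of log2 CPM after centring each gene. For KDM6B they were SLC41A3, SCN4A and FGFR4, with differences of 0.093 to 0.106, where KDM6B itself spread by 0.429 around its mean. For KDM5C they were RPL9, MAD2L2 and CEP85, at 0.034 to 0.043 beside a spread of 0.182, and for KDM5B H6PD, EPB41L1 and NUDT17, at 0.062 to 0.082 beside 0.3. For KDM6A, whose spread of 1.032 was the widest of the 5, they were HSPB8, FBLN2 and ARAP3, at 0.213 to 0.242. Members of unlike spread are not ranked by this difference. KDM5A varied so little, with a spread of 0.117, that RPP14, ANAPC1 and SNX1 at 0.061 to 0.064 were not much nearer to it than its own mean. These are descriptions of 8 libraries that share depth and line, and carry no test.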

How the data were processed

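The values the authors deposited are unnormalized counts of reads for each Ensembl gene in each library of poly(A) RNA. Reads were aligned to GRCh38 by STAR and counted by HTSeq 0.11.2, per the submitters' processing notes. These notes give no STAR version, annotation release or strand setting. Gene positions and exon lengths were taken from GENCODE v29, and upstream sequences from RefSeq.

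Counts were fitted with edgeR 4.0.16 in R 4.3.3 (glmQLFit and glmQLFTest, TMM factors of 0.9652 to 1.0555, filterByExpr by group), with all 8 libraries in 1 fit and 4 residual degrees of freedom. P-values were adjusted over the 17527 tested genes within each comparison. The test moderates the spread of each gene toward that of other genes, which adds to the residual degrees of freedom. SE values and 95% intervals were derived from the F statistic of that test and use this larger total. No pair of libraries within a group matched to within counting noise (chi-square of 7.57 to 15.3 per degree of freedom). Nothing in the labels says that they came from separate cultures. The p-values therefore measure the spread between these libraries, moderated over genes, and that spread may be technical. Intervals of count ratios cover counting error only.

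The 16 alternatives were DESeq2 1.42.0, RLE and upper-quartile factors, no filter, a mean of at least 1 CPM, thinning to the smallest library, fitting only the 2 groups compared, the replicate number as a block, and leaving out each of the 8 libraries. The rule for named genes took all 5 members, up to 2 called neighbours of each, up to 4 genes of each list with the smallest adjusted p, and the 3 genes most like each member. Of these genes, 1 is not reported here. The members and lists were chosen with earlier results of these data known.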

Additional observations from a re-analysis of the deposited data

How the results depend on the processing

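Of 480 values of the 5 genes under the alternatives, 426 kept their direction and their side of the threshold, 39 lost a call, 8 gained one and 7 changed sign, and no value that changed sign was called. With 1 library left out, log2 changes against WT ran from -0.07 to 0.22 for KDM5A and from -0.26 to 0.12 for KDM5B in sgKDM5C, from -0.01 to 0.29 for KDM5A in sgKDM6A, and, in sgKMT2B, from -0.2 to 0.1 for KDM5A, -0.02 to 0.19 for KDM6A and -0.29 to 0.05 for KDM6B. The genes called with 1 library left out numbered 1841 to 3877 for sgKDM5C against WT, 2495 to 4711 for sgKDM6A against WT, 2372 to 4787 for sgKMT2B against WT, 1878 to 4158 for sgKDM5C against sgKDM6A, 2236 to 4488 for sgKDM5C against sgKMT2B, and 2551 to 4966 for sgKDM6A against sgKMT2B. The KDM5C call in sgKDM6A was also lost with no filter (adjusted p = 0.067) and with only the 2 groups fitted (0.088). Without a filter KDM5B in sgKMT2B passed (0.33, adjusted p = 0.0179), and with upper-quartile factors KDM5C in sgKMT2B passed (-0.23, adjusted p = 0.0445). No label says what a replicate number marks. Differences between replicates 1 and 2 correlated across genes at -0.0159 to 0.0234 between WT and the knockouts, so the numbers were not taken to pair libraries against WT, but at 0.166 to 0.356 between knockouts, where libraries of 1 number went together. With the replicate block, 4645 genes were called for sgKDM5C against WT, 5521 for sgKDM6A and 5576 for sgKMT2B, and among the 5 genes it changed only the calls of KDM5B in sgKMT2B (0.32) and of KDM6B between sgKDM5C and sgKDM6A (0.38). Of the 57 called values of other genes that the rule for named genes took, 38 kept their call under each alternative that gave a value (16, but 14 for NINJ2 and 15 for PINCR), and none changed sign. With 2 libraries a group, small changes cannot be told from the spread. The cause of these changes with the setting was not tested.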
